A study of Mus musculus with 15 samples.

Results

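The genes EIF4A1, SEC24C, CCNK, DDX47, TMEFF1, SLC16A8, LRRC7 and RAVER1 had clear read counts in the control and shSHCBP1 columns of the deposited tables and very low counts in the shTMEM45A columns. They are 8 of the 56967 gene symbols that stand on 1 row, and 8 of the 19051 genes that passed a filter on low counts. The difference between shTMEM45A and control chose them, so its size is described below without a test. All 8 passed the filter, through the libraries in which they were high.

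The data are poly-A selected bulk RNA-seq of 15 libraries labelled as MDA-MB-468, an established human breast carcinoma line, given a short hairpin RNA. The groups of 3 libraries each were NC (a control hairpin, labelled sh_NC), shSHCBP1_1 and shSHCBP1_2 (2 hairpins named for SHCBP1), and 2 sets named for TMEM45A, with no further agent or time told apart by the labels. The headers give the TMEM45A columns the numbers 2 and 4, whereas the labels number these hairpins 1 and 2. They are called set 2 and set 4 here, and which hairpin each carries is not settled. The labels name no separate cultures behind the libraries of one group, so the p-values rest on a spread between libraries that may be technical only.

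Library totals ran from 13780294 to 16484000 counts. Genes with at least 1 read numbered 22507 to 23618 in the shTMEM45A libraries and 26589 to 28350 in the others. The TMM scaling factors were 0.877 to 0.896 and 1.01 to 1.13. NC and both shSHCBP1 groups stand in one table and the shTMEM45A sets in another, so a comparison of shTMEM45A with NC is also a comparison of the tables, and these cannot be told apart. Levels are in CPM, the read count scaled to a common library size with TMM factors. TMEM45A was 26.6 ± 2.08 (SD, n = 3) in NC, 17.8 ± 1.86 in set 4 and 19.4 ± 0.760 in set 2, a fall of 0.52 on the log2 scale (SE 0.09, edgeR adjusted p = 3.32e-06). SHCBP1 was 44.0 ± 2.53 CPM in NC, 47.0 ± 1.24 in shSHCBP1_1 and 44.2 ± 1.11 in shSHCBP1_2 (log2 difference 0.05, SE 0.06, edgeR adjusted p = 0.596), so these 6 libraries are called the libraries labelled shSHCBP1. Of 13 basal and epithelial breast markers, 7 passed the filter, of which 4 rose and 2 fell in shTMEM45A; the defining basal keratins KRT5, KRT6A and KRT6B had 0 reads in all 15 libraries and KRT14 at most 3, while KRT8 had 1115 to 2570 reads. The neurofilament genes NEFL and NEFM had 734 to 2586 and 950 to 4048 reads. They fell in shTMEM45A by 1.52 and 1.53 on the log2 scale (edgeR adjusted p = 1.08e-22 and 2.32e-21). NEFH and INA, the other 2 of the 4 listed, had 3 to 27 and 509 to 1059 reads and did not pass. The part of these markers in the results was not tested.

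The genes belong to no single pathway. EIF4A1 encodes the RNA helicase that unwinds the leader of messenger RNAs as part of the cap-binding complex, DDX47 a DEAD-box helicase of ribosomal RNA processing, CCNK the cyclin that activates the kinases CDK12 and CDK13 on RNA polymerase II, and RAVER1 an RNA-binding co-repressor of the splicing factor PTBP1. SEC24C is a cargo-binding subunit of the COPII coat that carries proteins out of the endoplasmic reticulum. TMEFF1 is a transmembrane protein with follistatin-like and EGF-like domains, SLC16A8 a lactate transporter best known from the retinal pigment epithelium, and LRRC7 (densin) a scaffold of neuronal synapses.

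Among the genes of RNA metabolism, EIF4A1 had 1569, 1577 and 1627 counts in NC, 1249, 1003 and 1027 in shSHCBP1_1 and 861, 992 and 965 in shSHCBP1_2. In shTMEM45A it had 39, 15 and 24 counts in set 2 and 40, 34 and 27 in set 4. No shTMEM45A library came near the lowest of the other 9. In CPM, EIF4A1 was 110.4 ± 1.78 (SD, n = 3) in NC, 1.88 ± 0.895 in set 2 and 2.43 ± 0.345 in set 4. The mean of the 6 shTMEM45A libraries was 2.74% of the mean of the other 9.

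DDX47 had 259, 260 and 221 counts in NC, 187, 203 and 177 in shSHCBP1_1, 158, 139 and 124 in shSHCBP1_2, 0, 1 and 4 in set 2, and 5, 11 and 9 in set 4. Both sets lie far below the other libraries. CCNK had 258, 265 and 248 counts in NC, 312, 245 and 278 in shSHCBP1_1, 230, 271 and 268 in shSHCBP1_2, 4, 3 and 1 in set 2, and 8, 3 and 3 in set 4. For CCNK the NC and shSHCBP1 libraries were mixed in order, and its 6 shTMEM45A libraries stood at 1.54% of the other 9, the lowest percentage of the 8 genes. RAVER1 was the highest of them at 8.53%, with 594, 625 and 639 counts in NC, 714, 656 and 621 in shSHCBP1_1, 663, 683 and 728 in shSHCBP1_2, 35, 34 and 23 in set 2, and 76, 56 and 76 in set 4. RAVER1 is therefore low rather than near zero in shTMEM45A.

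The COPII subunit SEC24C had 732, 734 and 781 counts in NC, 680, 565 and 556 in shSHCBP1_1, 489, 525 and 513 in shSHCBP1_2, 12, 18 and 5 in set 2, and 26, 27 and 11 in set 4. All 6 shTMEM45A values were below 30 reads, at 2.94% of the other 9 on the CPM scale.

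The membrane and synaptic genes had at most 188 reads in any library. TMEFF1 had 108, 119 and 146 counts in NC, 130, 102 and 134 in shSHCBP1_1, 143, 104 and 115 in shSHCBP1_2, 0, 5 and 5 in set 2, and 3, 0 and 1 in set 4. SLC16A8 had 147, 147 and 164 counts in NC, 102, 96 and 103 in shSHCBP1_1, 70, 84 and 110 in shSHCBP1_2, 0, 9 and 0 in set 2, and 1, 9 and 3 in set 4. LRRC7 had 188, 148 and 135 counts in NC, 129, 95 and 113 in shSHCBP1_1, 92, 107 and 111 in shSHCBP1_2, 3, 2 and 5 in set 2, and 9, 0 and 4 in set 4. In each of the 3 genes the shTMEM45A values stayed below 10 reads, at 2.10% of the other 9 for TMEFF1, 3.57% for SLC16A8 and 3.39% for LRRC7. Over the 8 genes, 6 of the 48 values in shTMEM45A were 0, spread over 4 genes, and none of the 72 in the other libraries. A count of 0 allows up to 3 reads in that library, for counting error only.

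**Figure D1:**
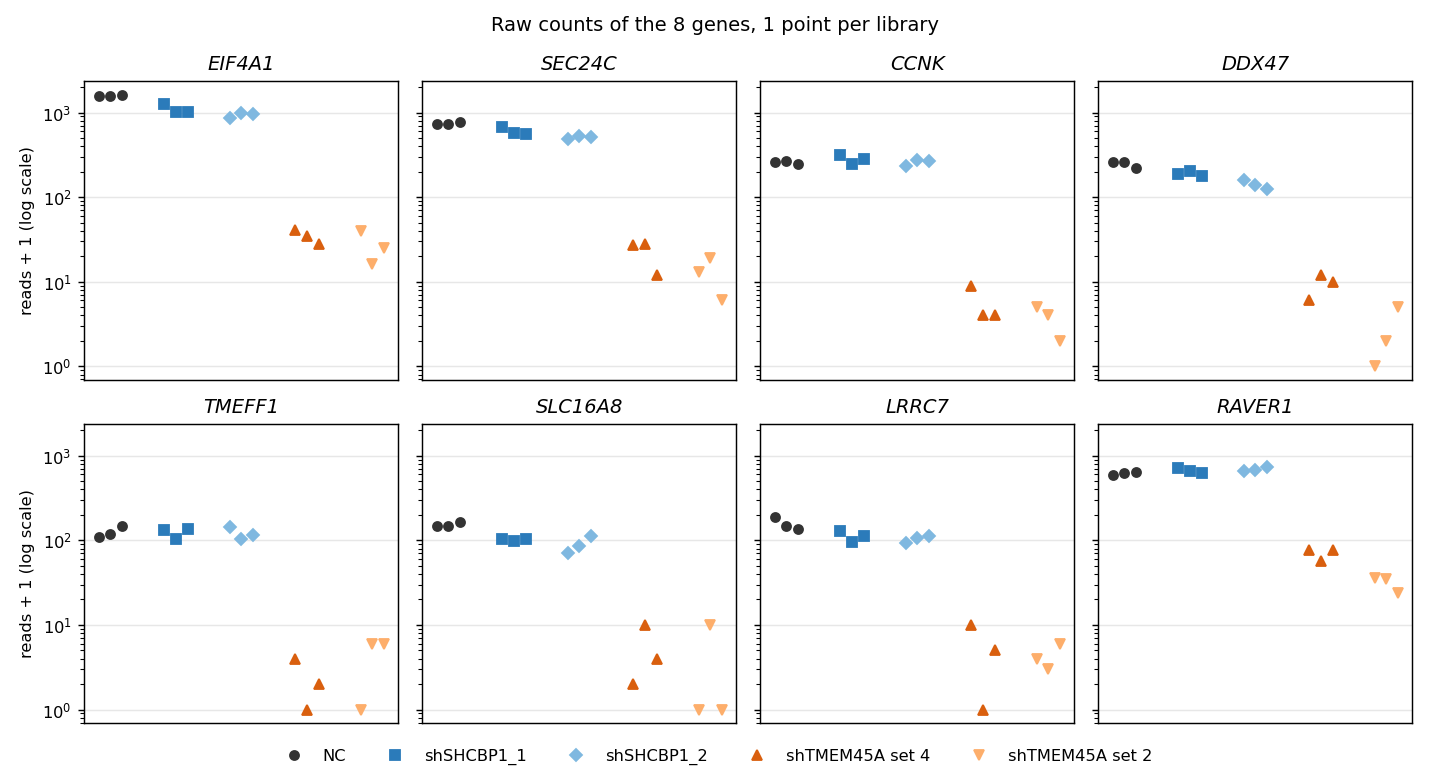
Reads plus 1 on a log axis for each of the 8 genes, with 1 point per library and groups told apart by marker and colour. In every panel the 6 shTMEM45A points lie below the 9 points of NC and the libraries labelled shSHCBP1, and RAVER1 keeps 23 to 76 reads there.

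Together the 8 genes took 0.0268 to 0.0275% of all counts in NC, 0.0196 to 0.0215% in the libraries labelled shSHCBP1, 0.000898 to 0.00102% in set 4 and 0.000426 to 0.000595% in set 2. In bulk RNA, fewer cells with a transcript and less RNA per cell cannot be told apart. The fitted log2 difference of shTMEM45A from NC ranged from -6.08 (CCNK) to -3.69 (RAVER1), with a median of -5.60, beside -0.05 over all 19051 genes. In that comparison 78.6% of the genes tested passed an adjusted p of 0.05 by edgeR, 37.3% higher and 41.3% lower, and nothing is read from the members' own calls. Fitted values of the lowest genes lean on single libraries: SLC16A8 was -5.30, and -7.67 without set 2 replicate 2; DDX47 was -5.93, and -6.71 without set 2 replicate 3; TMEFF1 was -5.74, and -6.35 without set 4 column 1.

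A rule of levels placed the members among all genes. Of the 14537 genes at 1 CPM or more in each of the 9 NC and shSHCBP1 libraries, 149 (1.02%) had a mean over the 6 shTMEM45A libraries under 5% of their mean over the 9. These included 7 of the 8 members, at ranks 46 (CCNK), 57 (TMEFF1), 70 (EIF4A1), 74 (DDX47), 77 (SEC24C), 97 (LRRC7) and 104 (SLC16A8) from the lowest percentage. The rule uses the difference that chose the members, so their number under it is not a result. RAVER1 lay outside. In the mirror image, genes at 1 CPM or more in each of the 6 with a mean over the 9 under 5% of theirs were 19 of 14275 (0.133%), and no member is among them. The last gene inside stood at 4.76% and the first outside at 5.00%. Of the 149, 62 carry names of the clone type, against 955 of the 14537; none of the members does.

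**Figure D2:**
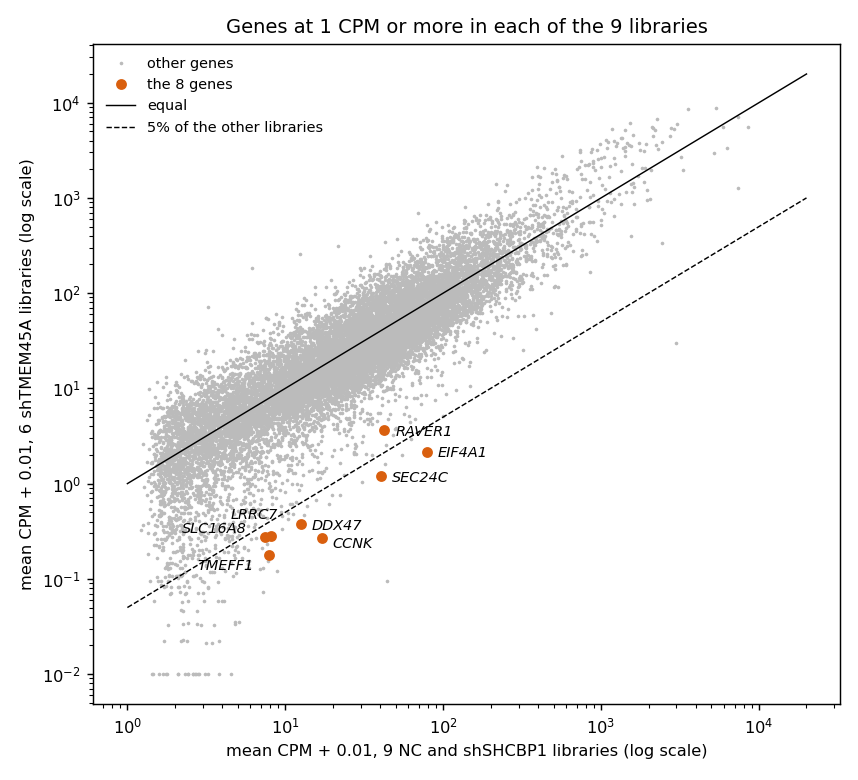
Mean CPM plus 0.01 in the 9 NC and shSHCBP1 libraries against that in the 6 shTMEM45A libraries, both on log axes, for the 14537 genes at 1 CPM or more in each of the 9. The 8 genes are orange and named, the solid line marks equal levels and the dashed line 5%; RAVER1 lies above the dashed line and the other 7 below it.

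The nearest relatives of the members were measured in the same libraries, and those tested did not share the fall to near zero. Of 28 listed relatives, 27 were tested (TMEFF2, the relative of TMEFF1, was too low). In shTMEM45A minus NC, 8 were higher and 14 lower by edgeR at an adjusted p of 0.05, and 5 did not pass, beside 37.3% higher and 41.3% lower over all genes. Their log2 differences ran from -1.83 to 1.10, with a median of -0.19, and none reached the smallest member difference of -3.69. The members were chosen by this difference, and only 149 of 14537 genes (1.02%) met the 5% rule above. Nothing about the relatives is read from the gap.

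EIF4A2, the closest paralog of EIF4A1, had 8852 to 9504 counts in NC, 6482 to 8375 in the libraries labelled shSHCBP1 and 2221 to 2706 in shTMEM45A. It fell by 1.83 on the log2 scale (SE 0.04, edgeR adjusted p = 1.52e-26), the lowest value among the relatives. EIF4A3, the helicase of the exon junction complex, rose by 0.51 (SE 0.05, edgeR adjusted p = 1.25e-10). Of the 8 listed partners of EIF4A1 in cap-dependent translation, 6 fell and 2 rose. EIF4B, its RNA-binding stimulator, fell by 1.29 and EIF4H by 1.19, and EIF4G1, the scaffold, fell by 0.59. EIF4EBP1, an inhibitor of cap-dependent translation, rose by 1.05. All 4 passed an adjusted p of 0.05 by edgeR.

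All 3 other cargo-binding COPII subunits fell in shTMEM45A: SEC24A had 214 to 271 counts there against 455 to 507 in NC, SEC24B 293 to 387 against 813 to 907, and SEC24D 172 to 227 against 524 to 548. Their log2 differences were -1.00, -1.35 and -1.35 (SE 0.08, 0.07 and 0.08, edgeR adjusted p at most 4.31e-13). Of the 8 listed COPII partners, 4 fell and 4 rose: SEC31A of the outer coat fell by 1.36 and SEC23A of the inner coat by 1.17, and the GTPases SAR1A and SAR1B rose by 0.38 and 0.52.

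Among relatives of CCNK, CCNL1 fell by 1.09 on the log2 scale, CCNT1, the cyclin of CDK9, by 0.83, CCNT2 by 0.69 and CCNC by 0.32, and CCNL2 did not pass (-0.08, SE 0.05, edgeR adjusted p = 0.135). CCNH, the cyclin of CDK7, was higher by 0.16 (SE 0.06, edgeR adjusted p = 0.0267), a value that turned to -0.031 under total-count scaling. The partner kinases moved unequally: CDK13 fell by 0.95 (SE 0.08), CDK12 by 0.23 (SE 0.07), and CDK9, which pairs with other cyclins, rose by 0.47 (SE 0.06), each past an adjusted p of 0.05 by edgeR. Of the 9 DEAD-box relatives of DDX47, 6 rose, 2 fell and 1 did not pass, with DDX56 at 1.10 and DDX54 at -0.54.

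Among relatives of the membrane and synaptic genes, SLC16A1, the widely expressed lactate transporter, fell by 0.38 (SE 0.04, edgeR adjusted p = 3.92e-10), and SLC16A3 and SLC16A7 did not pass. For LRRC7, ERBIN fell by 0.68 and SCRIB, a scaffold of cell polarity, by 0.19, and LRRC1 did not pass. RAVER2 fell by 0.36 (SE 0.07) and PTBP1, the splicing factor that RAVER1 binds, by 0.67 (SE 0.03), both past an adjusted p of 0.05 by edgeR.

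**Figure D3:**
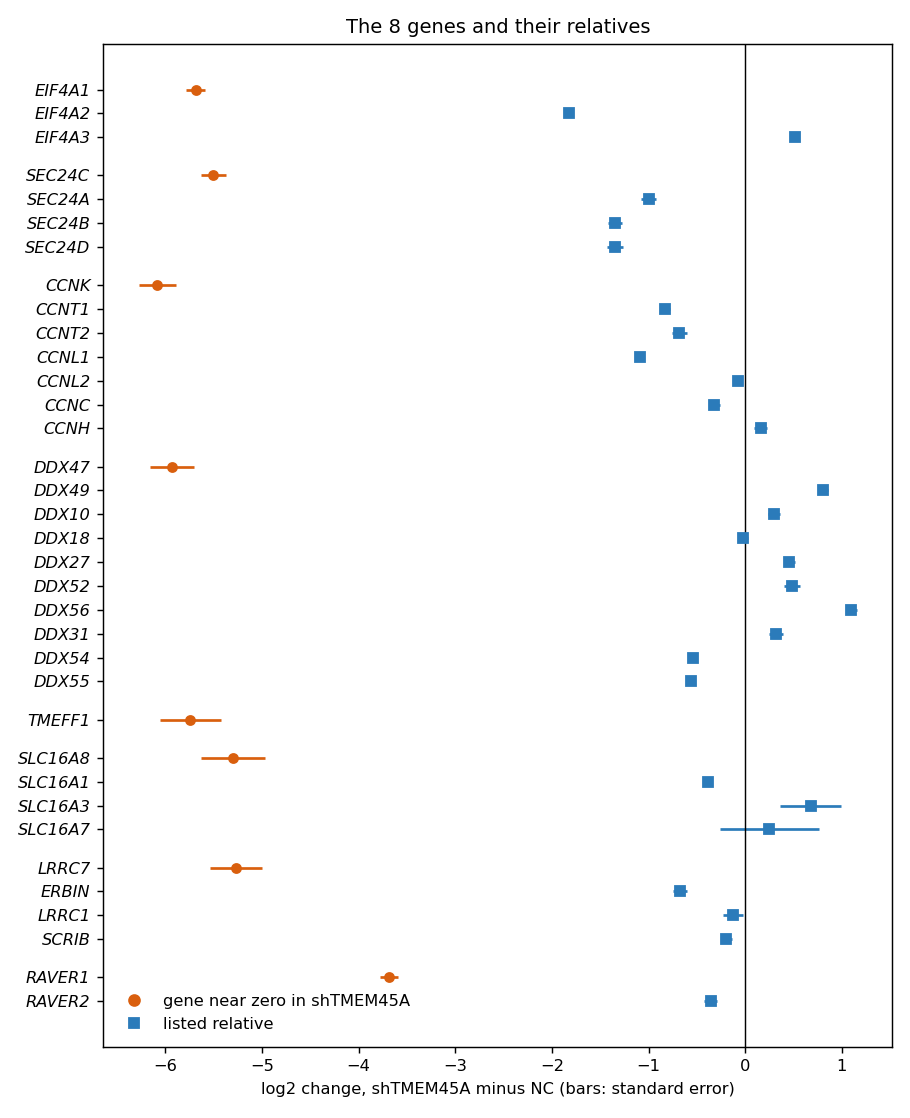
Log2 difference of shTMEM45A minus NC with its standard error for each of the 8 genes (orange circles) and its tested relatives (blue squares), grouped by family. The 8 genes lie between -6.08 and -3.69 and the relatives between -1.83 and 1.10.

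Rows that share a name with a member were set beside it. The tables name 13 pseudogenes of EIF4A1, of which 7 had counts. EIF4A1P10 had 199, 172 and 198 counts in NC and 370, 421 and 369 in set 2 and 380, 399 and 450 in set 4, and rose by 1.13 on the log2 scale (SE 0.11, edgeR adjusted p = 1.32e-10). EIF4A1P2 had 10, 13 and 8 counts in NC, 36, 48 and 64 in set 2 and 52, 45 and 55 in set 4, and rose by 2.32 (SE 0.33, edgeR adjusted p = 2.4e-07). The pseudogenes rose where the gene was low, and both fell in the libraries labelled shSHCBP1, by 0.41 and 1.07 (edgeR adjusted p = 0.00734 and 0.0457). How the authors' counting divided reads among near-identical copies is not given in the sources used here, so these values are uncertain.

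Summed over the 13 names the pseudogenes held 8.61 to 14.6 CPM in the 9 libraries and 29.7 to 39.3 CPM in the 6. Gene and pseudogenes together held 63.9 to 126.8 CPM in the 9 and 32.5 to 41.3 CPM in the 6, so the groups still did not overlap. The sum was thus low rather than near zero in shTMEM45A, and the comparison is the one that chose EIF4A1.

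Readthrough names held few reads. SENP3-EIF4A1, which joins EIF4A1 to its neighbour, had 3 to 11 counts in the 9 libraries and 0 to 14 in the 6, and did not pass (log2 difference -1.29, SE 0.75, edgeR adjusted p = 0.115). MSANTD3-TMEFF1 had at most 1 count in any library and 0 in all 6 shTMEM45A libraries. Of the 14537 genes, 142 (0.977%) are part of a readthrough name, against 5 of the 149 genes under 5% (3.36%). Those 5 include 2 of the 8 members, EIF4A1 and TMEFF1, so the counts overlap and nothing is read from them.

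Genes next to the members were compared in the same way. The order of neighbours was checked in the mouse annotation (GRCm38.p6), since no human annotation was used: for the 21 pairs with both mouse names, 15 had no protein-coding gene between them and none more than 2. Of the 26 listed neighbours in the tables, 19 were tested in shTMEM45A minus NC, and 9 were higher, 9 lower and 1 not passed, beside 37.3% higher and 41.3% lower over all genes. CHCHD1, a mitochondrial ribosome protein gene near SEC24C, rose by 1.94 (SE 0.07), from 395 to 458 counts in NC to 1419 to 1608 in shTMEM45A. MPDU1, near EIF4A1 and needed for sugar donors of glycosylation, rose by 1.50 (SE 0.06). SENP3, a SUMO protease gene beside EIF4A1, rose by 0.37 (SE 0.08), and CCDC85C, beside CCNK, fell by 1.43 (SE 0.06), each past an adjusted p of 0.05 by edgeR.

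ZGLP1, a zinc-finger gene near RAVER1, moved opposite to it in shTMEM45A minus NC. It had 3, 2 and 0 counts in NC, 8, 4 and 10 in shSHCBP1_1, 8, 17 and 9 in shSHCBP1_2, 131, 88 and 89 in set 2 and 59, 70 and 73 in set 4. On the log2 scale it rose by 5.60 in shTMEM45A (SE 0.44, edgeR adjusted p = 9.14e-13), a value that leans on the 5 reads in NC. ZGLP1 was also higher in the libraries labelled shSHCBP1, by 2.21 (SE 0.60, edgeR adjusted p = 0.00512). RAVER1 did not pass there (-0.03, edgeR adjusted p = 0.779). ICAM5, an adhesion gene in the same stretch, fell by 1.90 (SE 0.06, edgeR adjusted p = 1.55e-22), from 2003 to 2279 counts in NC to 412 to 669. The library kit does not mark strand, so reads of overlapping genes on opposite strands cannot be told apart. In the mouse annotation 1 of the 21 pairs overlaps, CCNK with SETD3, and none with RAVER1; overlap in human was not tested. SETD3 had 726 to 760 counts in NC and 719 to 907 in shTMEM45A, higher by 0.17 (SE 0.06, edgeR adjusted p = 0.0157), a value that turned to -0.016 under total-count scaling.

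**Figure D4:**
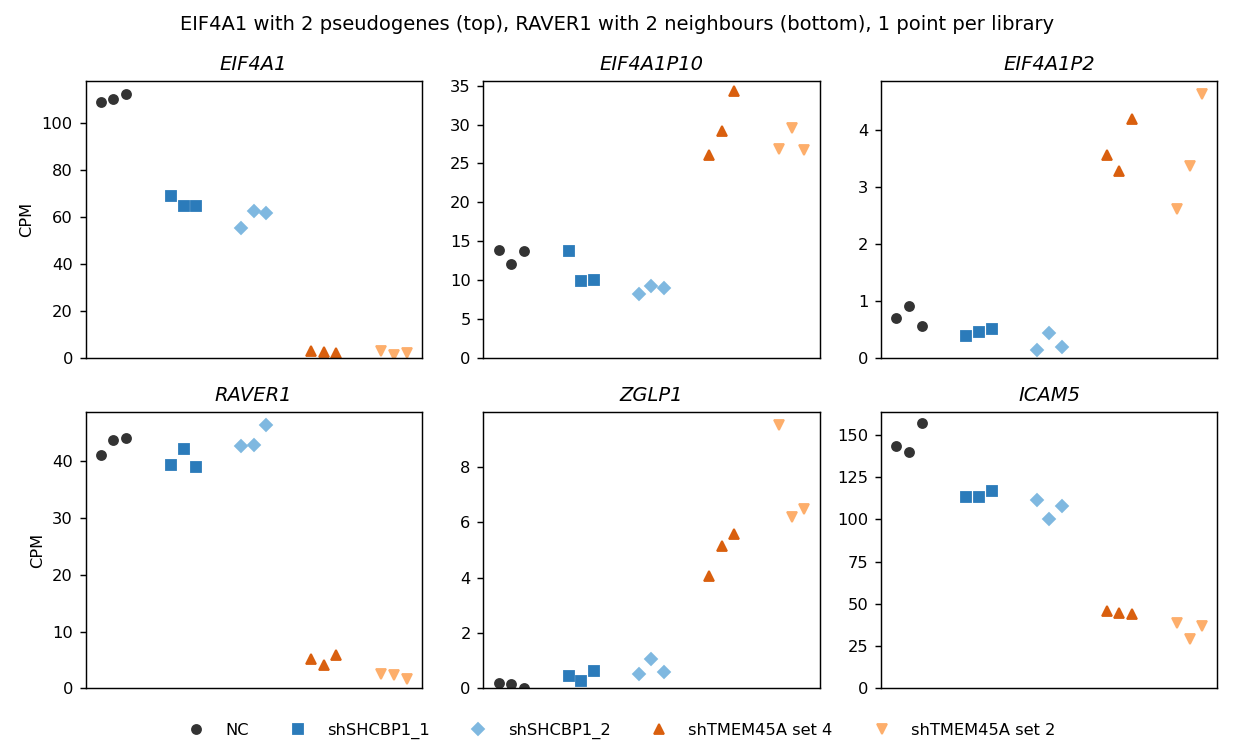
CPM on linear axes from 0, with 1 point per library, for EIF4A1 and its pseudogenes EIF4A1P10 and EIF4A1P2 (top) and for RAVER1 with ZGLP1 and ICAM5 (bottom). Both pseudogenes and ZGLP1 are highest in the 6 shTMEM45A libraries, where EIF4A1 and RAVER1 are lowest.

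The libraries labelled shSHCBP1 gave the comparison that did not choose the members directly, although it uses the same 3 NC libraries and the rule asked for clear counts in both groups. Of the 8 genes, 5 were lower than in NC and none higher, by edgeR at an adjusted p of 0.05; over all genes 31.1% passed, 15.9% lower and 15.2% higher. The median log2 difference was -0.65 for the members and 0.01 over all genes. For the other 142 genes under the 5% rule, 53 were lower (37.3%) and 1 higher, with a median of -0.50.

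EIF4A1 fell to 59.7% ± 2.25 (SD, n = 3) of the NC mean in shSHCBP1_1 and 54.1% ± 3.46 in shSHCBP1_2, a fall of 0.82 on the log2 scale (SE 0.07, edgeR adjusted p = 9.45e-11). SEC24C was at 69.7% ± 2.42 and 62.3% ± 1.59, a fall of 0.60 (SE 0.09, edgeR adjusted p = 2.23e-06). Whether single libraries overlap with NC is not read as a result for any member, since the share over all genes was not counted.

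DDX47 fell by 0.76 (SE 0.14, edgeR adjusted p = 9.01e-05), with 67.1% ± 8.22 and 52.1% ± 6.63 of the NC mean. SLC16A8 fell by 0.86 (SE 0.22, edgeR adjusted p = 0.00301) and LRRC7 by 0.71 (SE 0.18, edgeR adjusted p = 0.00276). The LRRC7 fall rests on NC replicate 1, without which it was -0.56 with an edgeR adjusted p of 0.0605. CCNK (-0.11, SE 0.11), TMEFF1 (-0.20, SE 0.19) and RAVER1 (-0.03, SE 0.07) did not pass, with edgeR adjusted p of 0.491, 0.458 and 0.779. The 3 genes thus stood at 85.5 to 102.3% of the NC mean as group means, and at 1.07 to 11.7% in the shTMEM45A sets.

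**Figure D5:**
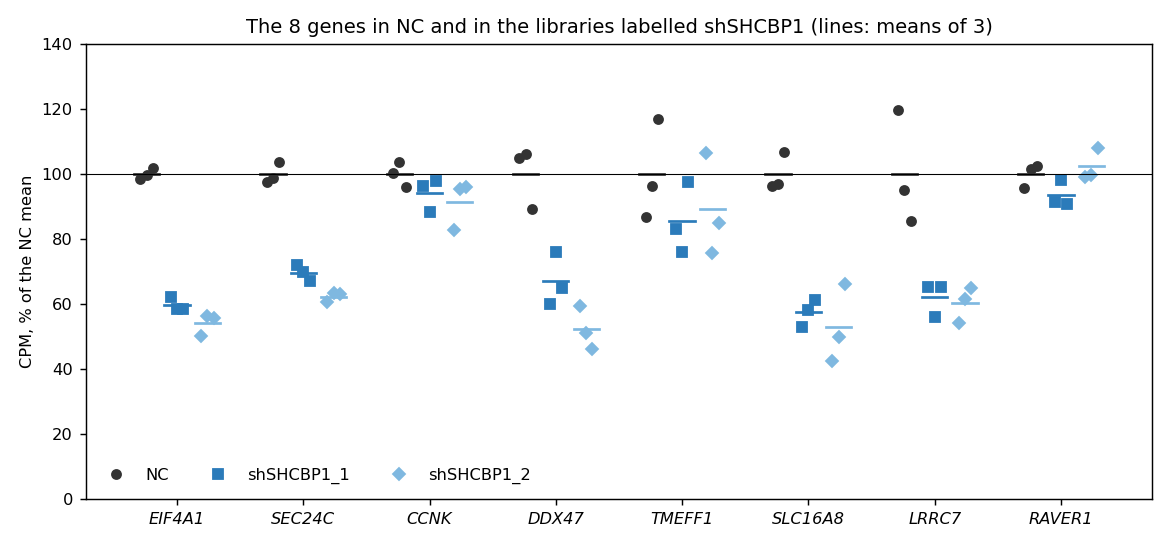
CPM as a percentage of the NC mean for each of the 8 genes in NC, shSHCBP1_1 and shSHCBP1_2, with 1 point per library and a line at each mean of 3. EIF4A1, SEC24C, DDX47, SLC16A8 and LRRC7 lie below the NC points, while CCNK, TMEFF1 and RAVER1 overlap with them. How many of all genes lie apart in this way was not counted.

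Between the 2 SHCBP1 hairpins none of the 8 genes passed by edgeR (0.835% of all genes did, 0.499% higher and 0.336% lower in shSHCBP1_2). At an unadjusted p under 0.05, 1 did, as did 10.8% of all genes; it was DDX47 (log2 difference of shSHCBP1_2 minus shSHCBP1_1 -0.36, SE 0.17, adjusted p = 0.432), and DESeq2 called 0 of them and gave no adjusted p for 5. With only those 6 libraries fitted, DDX47 passed (edgeR adjusted p = 0.0462), where 1674 genes were called in place of 159. EIF4A1 differed by -0.14 (SE 0.08) and SEC24C by -0.16 (SE 0.10).

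Between the 2 shTMEM45A sets 2 of the 8 genes passed by edgeR, where 5.27% of all genes did, 3.32% lower and 1.95% higher in set 2. That number is not a result, since several members passed the filter only through the NC and shSHCBP1 libraries. RAVER1 was 2.20 ± 0.466 CPM (SD, n = 3) in set 2 and 5.03 ± 0.861 in set 4, lower in set 2 by a log2 difference of -1.19 (SE 0.18, edgeR adjusted p = 6.32e-05). DDX47 was 0.120 ± 0.151 CPM in set 2 and 0.611 ± 0.240 in set 4, a log2 difference of -2.26 (SE 0.63, edgeR adjusted p = 0.0298) that rests on a total of 5 reads against 25. DDX47 passed the filter only through the NC and shSHCBP1 libraries, and was too low to test with the shTMEM45A libraries alone. Nothing is read from its call between the sets. The DDX47 difference no longer passed when set 2 replicate 1 or 2, or set 4 column 2 or 3, was left out, with log2 values from -2.17 to -1.72 and edgeR adjusted p of 0.0762 to 0.109. The RAVER1 difference did not pass when those 6 libraries alone were fitted (edgeR adjusted p = 0.0678). The other 6 genes ran from -0.88 (SEC24C, SE 0.32) to 1.24 (TMEFF1, SE 0.87) without passing. Of these, CCNK, TMEFF1, SLC16A8 and LRRC7 had at most 8, 5, 9 and 9 reads in any shTMEM45A library. They too passed the filter only through the other libraries, so nothing is read from their not passing. At an unadjusted p under 0.05, SEC24C also passed, as did 19.5% of all genes.

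The genes whose profile over the 15 libraries was nearest to the mean profile of the 8, by the root mean square difference of centred log2 CPM, were PKD1P6 (0.25), CAP1 (0.34), HSPG2 (0.38), ATG9A (0.38) and RAB11FIP1 (0.45), followed by NCR3LG1, ITPR3, SHPRH, CDCA7L and NID2 (0.52). Their shTMEM45A libraries stood at 3.37 to 7.17% of the other 9. The mean profile holds the fall that chose the members, so these low values follow from how the 10 genes were picked. The members themselves lay 0.36 (SEC24C), 0.39 (EIF4A1), 0.47 (CCNK), 0.55 (LRRC7 and DDX47), 0.58 (TMEFF1) and 0.64 (RAVER1 and SLC16A8) from that mean profile. Of the 8, 5 lay farther from it than the 10 genes named. Those 10 were taken for their small distance, so nothing is read from this.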

How the data were processed

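The deposited files are 2 tables of raw read counts per gene symbol, 58735 rows each, which the authors made; which aligner, counter and annotation they used is not given in the sources used here. Per the labels' protocols, libraries were poly-A selected and primed with random hexamers. The labels give the organism as mouse and the submitters' processing notes name the build mm10, but the symbols are human; the build is not settled, and no coordinates are printed. Repeated symbols and symbols turned into dates (1768 rows) were left out.

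Counts were fitted with edgeR 4.0.16 (quasi-likelihood F test, TMM scaling, filter with a count minimum of 10) over all 15 libraries and 5 group means, with Benjamini-Hochberg adjustment over 19051 genes and a threshold of 0.05. The script was tested on simulated data. CPM use TMM-scaled library sizes. DESeq2 1.42.0, RLE and total-count scaling, other filters, fits of only the compared libraries, a replicate block and leaving out each library were alternatives. Replicate numbers did not pair the NC and shSHCBP1 libraries; pairing with shTMEM45A was not checked.

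Named genes are the 8 members, listed relatives, partners and neighbours, names that hold a member's symbol, and the 10 nearest profiles (prior count 2, mean log2 CPM at least 2). Members and lists were chosen with earlier results of these data known.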

Additional observations from a re-analysis of the deposited data

Results flagged for a closer look

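All of these are differences between 2 hairpin sets of the same target that passed the edgeR test of that difference at an adjusted p of 0.05; no cause was tested. Among the members, DDX47 (-2.26) and RAVER1 (-1.19) were lower in shTMEM45A set 2 than in set 4, on the log2 scale. With only the shTMEM45A libraries fitted, RAVER1 did not pass and DDX47 was too low to test, so nothing is read from the DDX47 call.

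Among relatives and partners, set 2 minus set 4 was -0.21 for EIF4A2, -0.19 for CCNL2, 0.26 for DDX49, -0.22 for DDX54, -0.15 for EIF4B and 0.18 for EIF4EBP1. EIF4B also differed between the SHCBP1 hairpins, by -0.17 for shSHCBP1_2 minus shSHCBP1_1. Of the neighbours, MPDU1 differed by 0.24 and ICAM5 by -0.37 between the shTMEM45A sets. The neuronal filament genes NEFL, NEFM and INA differed by -0.27, -0.51 and 0.38. Of the nearest profiles, CAP1 (-0.85), ITPR3 (-0.71) and CDCA7L (-0.90) were lower in set 2.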

How the results depend on the processing

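The falls of EIF4A1, SEC24C, DDX47 and SLC16A8 in the libraries labelled shSHCBP1 passed in every alternative run; LRRC7 lost its call without NC replicate 1. Total-count scaling moved the median of all genes in that comparison from 0.01 to 0.16 and the split from 2894 higher and 3038 lower to 5784 and 1188 (RLE scaling 2126 and 4350); CCNK then stood at 0.045, RAVER1 at 0.12, EIF4G2 at 0.00042 and EIF4G3 at 0.0045. In shTMEM45A minus NC it moved the median from -0.05 to -0.24, with CCNH at -0.031, SEC13 at -0.060, NOL8 at -0.064 and SETD3 at -0.016, turned in direction. DDX18 turned to 0.00047 at a count minimum of 30; with 1 library left out it ran from -0.050 to 0.0015, and SLC16A7 from -0.28 to 0.99. The cause was not tested.

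Genes called between the SHCBP1 hairpins were 159, with 425 by DESeq2, 1674 with only the compared libraries, 1187 with the replicate block and 27 to 54 with 1 library left out; DDX47 passed only with the compared libraries alone. Total-count scaling moved that split from 95 higher and 64 lower to 163 and 39. With 1 library left out, TMEFF1 ran there from -0.088 to 0.17, CCNK from -0.087 to 0.023, SLC16A8 from -0.31 to 0.017 and LRRC7 from -0.11 to 0.028, none of them called. The replicate block changed no member's call. The block was fitted to the 9 NC and shSHCBP1 libraries alone. It gave 8169 calls in shSHCBP1 minus NC, against 5932 from all 15 libraries without a block. These counts differ in the libraries used as well as in the block, so the change is not that of the block alone. Same-numbered NC and shSHCBP1 libraries did not deviate together.

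Between the shTMEM45A sets, 1004 genes were called, and 129 with only those 6 libraries, where RAVER1 did not pass (adjusted p = 0.0678 by edgeR) and DDX47 was too low to test. With 1 library left out, LRRC7 ran from -0.95 to 0.65 and SLC16A8 from -5.27 to 0.54, the lowest without set 2 replicate 2, which holds all 9 reads of SLC16A8 in that set. The near-zero rule gave 149 genes at 5%, 52 at 2% (1 member), 324 at 10% (8 members) and 34 at a minimum of 5 CPM (6 members). Members with under 10 reads in shTMEM45A limit any comparison between its sets.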

Other observations

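The mirror of the rule, genes at 1 CPM or more in each of the 6 shTMEM45A libraries with a mean over the other 9 under 5% of theirs, held 19 genes. The chemokine CCL5 (85.0 CPM in the 6 and 0.110 in the 9) and the interferon-induced ISG15 (183.7 and 6.19) were among them; these genes were named after their values were seen.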
